A study of Mus musculus with 4 samples.

Results

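Genes of glycolysis and of the response to low oxygen were compared in the dorsal skin of imiquimod (IMQ)-treated mice fed with or without 7-ketocholesterol (7KC). The 10 genes were chosen by symbol, with earlier results of these data known. They were *Slc2a1*, *Hk1*, *Hk2*, *Pfkfb3*, *Pfkp*, *Pkm*, *Ldha*, *Slc16a3*, *Hif1a* and *Bnip3*. All 10 were found among the 24346 gene symbols of the deposited data, and all 10 were among the 15896 genes tested. In the 7KC-IMQ group, 9 of the 10 genes lay above the Cont-IMQ group without overlap between the libraries, and *Hk1* overlapped. Of all genes tested, 23.9% were higher and 22.9% lower without overlap. The largest differences were those of *Slc16a3* (1.74-fold), *Slc2a1* (1.56-fold) and *Hif1a* (1.5-fold), and none of the 10 passed the adjusted threshold with 2 libraries in each group.

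Male C57BL/6 mice were fed, from an age of 8 weeks, a high-fat diet with cholesterol and bile salt that causes steatohepatitis (the NASH diet) for 3 weeks, and were then given a cream with 5% IMQ for 1 day. The Cont-IMQ group received the NASH diet alone, and the 7KC-IMQ group received the same diet with 7KC, an oxidized form of cholesterol. IMQ, an agonist of the innate receptor TLR7, causes a psoriasis-like dermatitis in mice. Each group had 2 libraries (replicates 1 and 2), and all 4 libraries share the NASH diet and IMQ, so skin without IMQ or from mice on an ordinary diet is not part of the comparison. Nothing in the labels says that the replicates came from separate animals, and p-values then measure only the spread between these libraries, which may be technical.

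Glycolysis converts glucose to pyruvate in the cytosol. When pyruvate is not passed to the mitochondria, lactate dehydrogenase reduces it to lactate, which leaves the cell through monocarboxylate transporters. Hypoxia-inducible factor 1 (HIF-1), a dimer of HIF1A with ARNT, binds a short core in DNA and raises the transcription of glucose transporters, most glycolytic enzymes and lactate exporters. In normal oxygen, HIF1A protein is hydroxylated by the EGLN enzymes and degraded, so the level of HIF-1 protein is set largely after transcription and the mRNA of *Hif1a* does not measure it. In skin, the epidermis has no blood vessels of its own and its keratinocytes use glycolysis heavily, as do neutrophils.

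Because HIF-1 is known to act on many of these genes, the letters of its core were searched in their promoters. The windows are those of RefSeq (GRCm38.p6), 250 bases before to 50 bases after each annotated start, and the letters searched were ACGTG and GCGTG on both strands. For each gene, 1 match that lies before the start together with 12 bases on each side is shown, the nearest ACGTG or, where no ACGTG met this, the nearest GCGTG. Nearer matches with fewer than 12 bases left before the start are not shown (*Hk1* at 12 and 15 bases before it, *Slc16a3* at 14). The sequences are written 5′ to 3′ on the strand of the gene. Capitals mark the match, which reads CACGT or CACGC where it lies on the other strand.
Slc2a1, chr4:119108697-119108725, plus strand, match beginning 36 bases before the start: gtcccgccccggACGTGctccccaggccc
Hk1, chr10:62340601-62340629, minus strand, 196 bases before: ccgctctctttcCACGCccacttgtgtgc
Hk2, chr6:82774490-82774518, minus strand, 52 bases before: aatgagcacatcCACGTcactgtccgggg
Pfkfb3, chr2:11502126-11502154, minus strand, 52 bases before: acccttctctccACGTGaaagggggctgg
Pfkp, chr13:6648778-6648806, minus strand, 23 bases before: cgctcgggcgggGCGTGggcggctcctgc
Pkm, chr9:59657140-59657168, plus strand, 75 bases before: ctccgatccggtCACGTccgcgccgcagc
Ldha, chr7:46845758-46845786, plus strand, 34 bases before: cgtgggttcccgCACGTccgctgggctcc
Slc16a3, chr11:120949028-120949056, plus strand, 27 bases before: caggcagcggtgACGTGcgcgggggacgt
Hif1a, chr12:73907785-73907813, plus strand, 70 bases before: tggctgagagcaACGTGggctggggtggg
Bnip3, chr7:138909597-138909625, minus strand, 107 bases before: cgcacgcgccgcACGTGccacacgctccc

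Each of the 10 genes had at least 1 match, in 12 of their 14 windows (85.7%). The letters are common in such windows. They were present in 43.8% of all 32851 windows, and in 63.3% of the 11913 genes tested that have a window. In *Pfkfb3* and *Bnip3*, the match shown lies within CACGTG, a core that other factors with a basic helix-loop-helix also bind. A match describes the letters only, and binding was not measured.

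RNA was sequenced as 75-base single-end reads, and the authors deposited FPKM, the fragments of a gene scaled to its exon length and to the mapped fragments of the library, for each gene symbol. Counts are not part of the files. The depth estimated from the steps between low values lay between 14960000 and 16200000 reads per library. At this depth the lowest value of the 10 genes, that of *Pfkfb3* in Cont-IMQ replicate 2, corresponded to about 123 reads per kilobase. For 1 kilobase, this is a counting error of 9.02% (1 SD, Poisson). The merged exons of *Pfkfb3* cover 7561 bases, so the whole gene can hold more reads and have a smaller error. Keratinocyte markers were abundant in every library, with *Krtdap* between 5822 and 6915 FPKM. Markers of skeletal muscle were also high (*Acta1*, 2106 to 3133 FPKM), and mouse skin is known to carry a thin sheet of muscle. The hair follicle markers set the Cont-IMQ libraries apart, with a summed FPKM of 124 in replicate 1 and 1588 in replicate 2, against 464 and 410 in 7KC-IMQ. The sum of FPKM over all genes was highest in 7KC-IMQ replicate 2 (702200, against 630300 to 654700 in the others). Of all 15896 genes, 1 gene (*Mir24-2*, named after its value was seen) passed the adjusted threshold (limma, adjusted p = 3.8e-05).

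Among the 10 genes, 0 passed an adjusted p of 0.05 (limma with a variance trend on log2(FPKM + 1), Benjamini-Hochberg over all genes tested), where the share of all genes was 0.00629%. The adjusted p-values lay between 0.356 and 0.672. At an unadjusted p under 0.05, 5 were higher (*Slc2a1*, *Pfkfb3*, *Pkm*, *Slc16a3* and *Hif1a*) and 0 were lower, where 7.5% of all genes tested were higher and 5.47% lower. Of the 10, 9 were higher without overlap and 0 lower, against 23.9% and 22.9% of all genes. Because the 10 genes were chosen with earlier results of these data known, the shares of all genes are a description and not a test. The median difference in log2(FPKM + 1) was 0.38 for the 10 genes and -0.01 for all genes. With 2 libraries in each group, the smallest two-sided p of an exact permutation test is 0.333. Without Cont-IMQ replicate 2, or without 7KC-IMQ replicate 2, 1 of the 10 genes (*Hif1a* in both cases) remained under an unadjusted p of 0.05, and the median was 0.25 and 0.26, respectively. When each library was rescaled to the same sum of FPKM, the median was 0.30, 4 genes had an unadjusted p under 0.05 and 8 were higher without overlap. Under this rescaling, 15% of all genes tested were higher and 32.1% lower without overlap. The same rescaling turned the balance of all genes, from 1192 higher and 869 lower at an unadjusted p under 0.05 to 638 higher and 1229 lower.

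**Figure D1:**
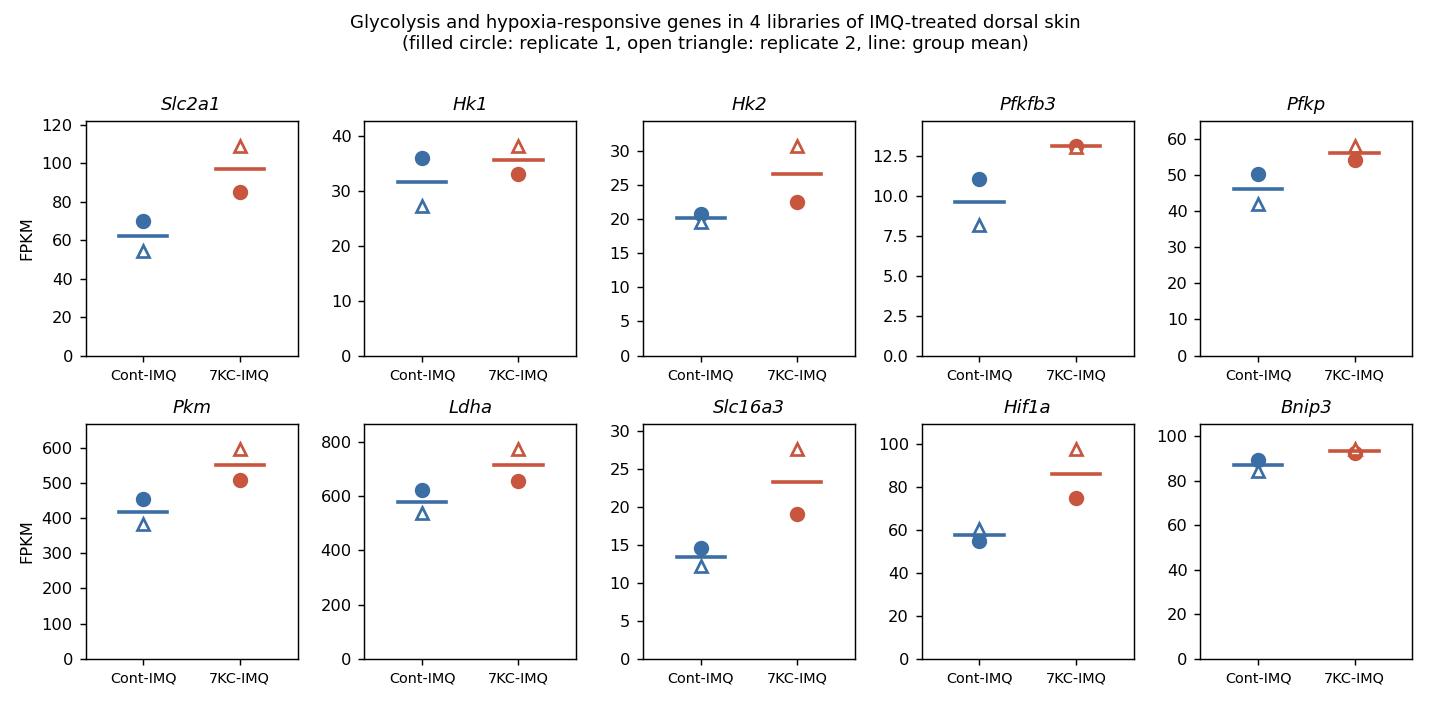
FPKM of the 10 genes in each library (vertical axes from 0), for Cont-IMQ (blue) and 7KC-IMQ (red), with replicate 1 as a filled circle, replicate 2 as an open triangle and the group mean as a line. In 9 of the 10 panels both red symbols lie above both blue symbols, and in that of *Hk1* the value of 7KC-IMQ replicate 1 (33.1) lies below that of Cont-IMQ replicate 1 (35.9). Of all genes tested, 23.9% were higher and 22.9% lower without overlap.

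*Slc2a1* encodes GLUT1, the main glucose transporter of keratinocytes and of many proliferating cells. It lies on chromosome 4 (119108711 to 119137983, plus strand, GRCm38). Its FPKM was 70.0 (replicate 1) and 54.5 (replicate 2) in Cont-IMQ, against 85.3 (replicate 1) and 109 (replicate 2) in 7KC-IMQ. The groups were separated, and on the log2 scale the replicates of each group lay about equally far apart. The group means were 62.3 ± 11.02 and 97.3 ± 16.9 (SD, n = 2), and the difference in log2(FPKM + 1) was 0.64 with a standard error of 0.18 (limma, adjusted p = 0.356). In every library its FPKM exceeded that of *Slc2a4*, the insulin-regulated transporter of muscle and fat. The ratio of *Slc2a1* to *Slc2a4* was 2.81 and 2.26 in Cont-IMQ and 4.81 and 4.60 in 7KC-IMQ, without overlap. *Slc2a4* itself was at 24.9 and 24.1 FPKM in Cont-IMQ and at 17.7 and 23.8 in 7KC-IMQ. *Slc2a3*, the high-affinity transporter of neurons and leukocytes, was near 1 FPKM in all 4 libraries (difference -0.01 ± 0.10, standard error).

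The hexokinases trap glucose in the cell by phosphorylation. *Hk1*, the housekeeping form, lies on chromosome 10 (62268855 to 62379908, minus strand), and *Hk2*, the form that HIF-1 is known to induce, on chromosome 6 (82725025 to 82774454, minus strand). *Hk1* was 35.9 and 27.3 FPKM in Cont-IMQ and 33.1 and 38.2 in 7KC-IMQ. The groups overlapped, and the difference of 0.18 ± 0.16 (standard error; limma, adjusted p = 0.672) was about as large as its error. Without Cont-IMQ replicate 2, its sign turned (-0.02). *Hk2* was 20.8 and 19.5 FPKM in Cont-IMQ and 22.5 and 30.8 in 7KC-IMQ. Here the Cont-IMQ libraries were close together, 7KC-IMQ replicate 1 lay just above them and replicate 2 well above. The mean was 1.32-fold higher (20.2 ± 0.92 and 26.7 ± 5.87, SD, n = 2), a difference of 0.37 ± 0.16 in log2(FPKM + 1) (limma, adjusted p = 0.436), and without 7KC-IMQ replicate 2 it was 0.15. The ratio of *Hk2* to *Hk1* overlapped between the groups (0.58 and 0.72 in Cont-IMQ, 0.68 and 0.81 in 7KC-IMQ).

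Among the other hexokinases, *Hk3*, a form of myeloid cells, was 4.25 and 4.36 FPKM in Cont-IMQ and 3.91 and 4.91 in 7KC-IMQ, with overlap. *Hkdc1* was listed at or near 0 in every library and was not tested.

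Phosphofructokinase commits sugar to glycolysis, and *Pfkfb3* makes its strongest activator, a fructose bisphosphate. *Pfkfb3* (chromosome 2, 11471433 to 11554077, minus strand) had 11.1 and 8.13 FPKM in Cont-IMQ and 13.1 in each 7KC-IMQ library. The 7KC-IMQ libraries were nearly equal, and the distance to Cont-IMQ depended on the Cont-IMQ library. The mean was 1.36-fold higher, and the difference was 0.43 ± 0.16 (standard error; limma, adjusted p = 0.374), with 0.23 left when Cont-IMQ replicate 2 was left out. *Pfkp*, the platelet-type phosphofructokinase (chromosome 13, 6579768 to 6648777, minus strand), had 50.2 and 41.8 FPKM in Cont-IMQ and 54.2 and 58.1 in 7KC-IMQ. The gap between the groups (50.2 to 54.2 FPKM) was smaller than the distance between the Cont-IMQ replicates. The mean was 1.22-fold higher, a difference of 0.29 ± 0.11 (limma, adjusted p = 0.393).

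The other phosphofructokinase genes gave a higher value for *Pfkl* and an overlap for *Pfkm*. *Pfkl*, the liver-type gene, was 36.7 and 31.6 FPKM in Cont-IMQ and 44.5 and 55.3 in 7KC-IMQ, a difference of 0.53 ± 0.14 (standard error; limma, adjusted p = 0.356). The ratio of *Pfkp* to *Pfkl* was accordingly lower without overlap (1.37 and 1.32 in Cont-IMQ, 1.22 and 1.05 in 7KC-IMQ). *Pfkm*, the muscle-type gene, was 118 and 67.6 FPKM in Cont-IMQ and 63.0 and 83.6 in 7KC-IMQ. Its groups overlapped, and its difference of -0.30 ± 0.30 turned to 0.10 without Cont-IMQ replicate 1. The ratio of *Pfkp* to *Pfkm* was higher without overlap (0.42 and 0.62 in Cont-IMQ, 0.86 and 0.69 in 7KC-IMQ). Of the bifunctional enzymes related to *Pfkfb3*, *Pfkfb4* was higher without overlap (13.2 and 8.94 FPKM in Cont-IMQ, 13.6 and 16.4 in 7KC-IMQ), and *Pfkfb2* was lower without overlap (7.39 and 7.47 in Cont-IMQ, 6.02 and 5.94 in 7KC-IMQ). *Pfkfb1* overlapped (3.31 and 4.07 in Cont-IMQ, 4.04 and 4.30 in 7KC-IMQ). The ratio of *Pfkfb3* to *Pfkfb2* was 1.496 and 1.09 in Cont-IMQ and 2.18 and 2.2 in 7KC-IMQ, without overlap, whereas that of *Pfkfb3* to *Pfkfb4* overlapped (0.83 and 0.91 in Cont-IMQ, 0.96 and 0.80 in 7KC-IMQ). *Fbp2*, which removes the product of phosphofructokinase and is known from muscle, had 22.6 and 17.7 FPKM in Cont-IMQ and 8.84 and 8.68 in 7KC-IMQ. This was the largest difference among the regulators of the fructose bisphosphates (-1.10 ± 0.14, standard error; limma, adjusted p = 0.331). The muscle markers overlapped in summed FPKM (11340 and 10380 in Cont-IMQ, 9224 and 10940 in 7KC-IMQ). By gene they were mixed, with 3 of 18 higher and 5 lower without overlap, against 23.9% and 22.9% of all genes. The part of muscle content in the difference of *Fbp2* was not tested.

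*Pkm* encodes pyruvate kinase, which makes pyruvate and ATP, and lies on chromosome 9 (59656368 to 59679375, plus strand). It had 453 and 383 FPKM in Cont-IMQ and 507 and 596 in 7KC-IMQ. The groups did not overlap, with means of 418 ± 49.5 and 551 ± 62.8 (SD, n = 2). The difference was 0.40 ± 0.14 (standard error; limma, adjusted p = 0.366). *Pkm* gives rise to the isoforms PKM1 of muscle and PKM2 of proliferating cells by alternative splicing, which a value per gene does not separate. Of the 75-base windows of its transcripts, 17.8% also occur in other genes, among them the overlapping *Gm49759*, so part of its reads is uncertain. *Pklr*, the pyruvate kinase gene of liver and red cells, was at or near 0 in every library and was not tested.

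*Ldha* encodes the lactate dehydrogenase subunit that favours lactate formation (chromosome 7, 46841475 to 46855627, plus strand). Its FPKM was 622 and 538 in the Cont-IMQ libraries and 658 and 775 in 7KC-IMQ. The lower 7KC-IMQ library exceeded the higher Cont-IMQ library by less than the replicates of either group differed. The mean was 1.24-fold higher (580 ± 59.5 and 716 ± 82.6, SD, n = 2), a difference of 0.30 ± 0.13 (limma, adjusted p = 0.434). *Ldhb*, whose subunit favours the reverse reaction, was 73.5 and 64.8 FPKM in Cont-IMQ and 74.9 and 85.4 in 7KC-IMQ. The ratio of *Ldha* to *Ldhb* was 8.47 and 8.30 in Cont-IMQ and 8.79 and 9.07 in 7KC-IMQ, a small separation without overlap.

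*Slc16a3* encodes MCT4, the low-affinity exporter of lactate in strongly glycolytic cells, and lies on chromosome 11 (120948480 to 120960868, plus strand). It had 14.6 and 12.3 FPKM in Cont-IMQ and 19.1 and 27.7 in 7KC-IMQ. The groups were well separated, and the 7KC-IMQ libraries differed from each other by more than the Cont-IMQ libraries did. The means were 13.4 ± 1.67 and 23.4 ± 6.06 (SD, n = 2), and the difference of 0.74 ± 0.20 was the largest of the 10 genes (limma, adjusted p = 0.356). With 1 library left out it ranged from 0.48, without 7KC-IMQ replicate 2, to 0.99, without 7KC-IMQ replicate 1. *Slc16a1*, which encodes the widespread lactate transporter MCT1, was also higher without overlap, with 28.4 and 17.9 FPKM in Cont-IMQ and 31.0 and 37.7 in 7KC-IMQ (difference 0.58 ± 0.24, limma, adjusted p = 0.411). The ratio of *Slc16a3* to *Slc16a1* overlapped.

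*Hif1a*, the oxygen-regulated subunit of HIF-1, lies on chromosome 12 (73901375 to 73947530, plus strand). Its FPKM was 54.8 and 60.4 in Cont-IMQ, against 74.7 and 97.7 in 7KC-IMQ, each in the order of the replicates. The Cont-IMQ libraries were close together, and both 7KC-IMQ libraries lay above them. The means were 57.6 ± 3.93 and 86.2 ± 16.3 (SD, n = 2), and the difference was 0.56 ± 0.15 (standard error; limma, adjusted p = 0.356). *Hif1a* had the lowest unadjusted p of the 10 genes (limma, 0.0150). *Arnt*, the partner of HIF1A in the dimer, had 17.4 and 20.6 FPKM in Cont-IMQ and 17.9 and 17.7 in 7KC-IMQ, with overlap, and the ratio of *Hif1a* to *Arnt* was 3.15 and 2.93 in Cont-IMQ and 4.18 and 5.52 in 7KC-IMQ. *Epas1*, the related oxygen-regulated subunit HIF2A, was 17.5 and 17.4 FPKM in Cont-IMQ and 19.8 and 24.9 in 7KC-IMQ, a difference of 0.33 ± 0.13 (limma, adjusted p = 0.384). The ratio of *Hif1a* to *Epas1* was also higher without overlap (3.13 and 3.47 in Cont-IMQ, 3.77 and 3.92 in 7KC-IMQ).

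*Bnip3*, a mitochondrial protein that directs mitochondria to autophagy and a known HIF-1 target, lies on chromosome 7 (138890836 to 138909519, minus strand). It had 89.4 and 84.5 FPKM in Cont-IMQ and 92.4 and 94.3 in 7KC-IMQ. The groups did not overlap, but the means differed only 1.07-fold (86.9 ± 3.46 and 93.3 ± 1.29, SD, n = 2), a difference of 0.10 ± 0.07 (limma, adjusted p = 0.592). After rescaling to the same sum or quantile normalization, the groups overlapped and the difference was 0.02 and 0.01. Of its 75-base windows, 34.4% occur in other genes, among them the antisense *Gm45507*, and the strand setting of the counting is not given in the sources used here. Apart from *Pkm*, the share in the other genes was at most 4.87% (*Pfkp*, whose exons overlap those of *Pitrm1* on the opposite strand). *Bnip3l*, its close relative, was also higher without overlap (78.9 and 69.6 FPKM in Cont-IMQ, 81.6 and 90.0 in 7KC-IMQ), and the ratio of *Bnip3* to *Bnip3l* overlapped.

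**Figure D2:**
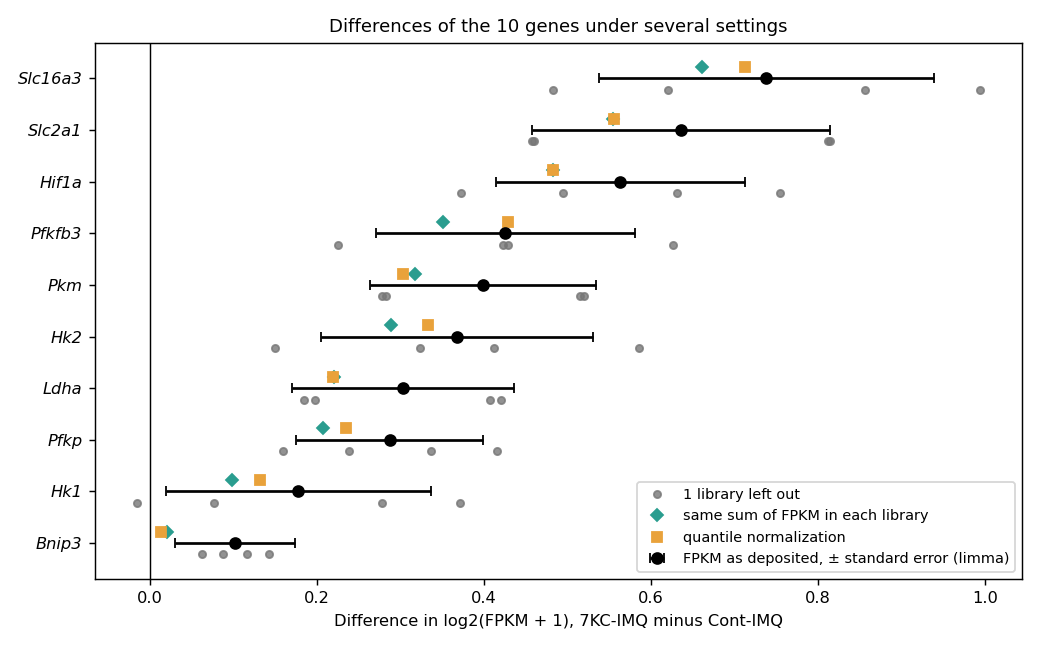
Difference in log2(FPKM + 1) of each gene, 7KC-IMQ minus Cont-IMQ (black, with the standard error of limma), with the values when 1 library was left out (grey), each library was rescaled to the same sum of FPKM (green) or quantiles were normalized (orange). All differences lie right of 0 except that of *Hk1* without Cont-IMQ replicate 2 (-0.02), and the widest spread with 1 library left out is that of *Slc16a3* (0.48 to 0.99).

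In level, the 10 genes spanned a wide range of FPKM. Over the 4 libraries, *Ldha* had the highest mean (648), followed by *Pkm* (485), *Bnip3* (90.1), *Slc2a1* (79.8), *Hif1a* (71.9), *Pfkp* (51.1), *Hk1* (33.6), *Hk2* (23.4), *Slc16a3* (18.4) and *Pfkfb3* (11.3). The ranges over the libraries overlapped between neighbours in this order except between *Pkm* and *Bnip3* and between *Pfkp* and *Hk1*. On the FPKM scale, *Ldha* and *Pkm* thus stood far above the other 8 genes in every library.

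The libraries ranked alike for nearly all of the genes. The highest value was in 7KC-IMQ replicate 2 for 9 genes and in 7KC-IMQ replicate 1 for *Pfkfb3*. The lowest was in Cont-IMQ replicate 2 for 9 genes and in Cont-IMQ replicate 1 for *Hif1a*. Of all genes tested, 27.8% were highest in 7KC-IMQ replicate 2 and 26.8% lowest in Cont-IMQ replicate 2. The genes nearest to the mean profile of the 10, by Euclidean distance over the 4 libraries among 13100 genes, were *Atp1b1*, a subunit of the sodium pump (47.8 and 40.3 FPKM in Cont-IMQ, 54.1 and 64.5 in 7KC-IMQ), *Eid2*, a small inhibitor of differentiation (1.93 and 1.58, then 2.42 and 3.05), and *Pgk1*, a glycolytic enzyme (283 and 245, then 312 and 365). Their distances were 0.028, 0.044 and 0.046 in log2(FPKM + 1).

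The rest of the glycolytic pathway was described by a list of 25 other enzymes, of which 20 were tested. None passed the adjusted threshold (limma). At an unadjusted p under 0.05, 4 were higher and 1 was lower, where 7.5% of all genes tested were higher and 5.47% lower. Without overlap, 9 were higher and 4 lower, where the shares of all genes were 23.9% and 22.9%. The median difference was 0.14, against 0.38 for the 10 genes and -0.01 for all genes. *Eno1*, the enolase of most tissues, was 60.2 and 59.5 FPKM in Cont-IMQ and 79.9 and 84.3 in 7KC-IMQ, a difference of 0.45 ± 0.07 (standard error; limma, adjusted p = 0.352). *Pgam1*, the phosphoglycerate mutase of most tissues, was 228 and 205 FPKM in Cont-IMQ and 267 and 309 in 7KC-IMQ (0.41 ± 0.11, adjusted p = 0.356). Of their windows, 23% and 34.9% occur in other genes, so reads of near-identical copies may be counted among them. *Eno1b*, of whose windows 80.6% occur in other genes, among them *Eno1*, had the higher FPKM. It was at 188 and 159 FPKM in Cont-IMQ and at 196.5 and 258 in 7KC-IMQ (0.38 ± 0.17, limma, adjusted p = 0.434). How reads were divided between *Eno1* and *Eno1b* is not given in the sources used here. *Bpgm*, which makes the oxygen-affinity regulator of red cells, was lower without overlap (8.99 and 11.2 FPKM in Cont-IMQ, 8.08 and 8.45 in 7KC-IMQ). *Pgk2* and *Ldhc*, both of the testis, were listed at 0 in every library.

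Of the 14 other glucose and lactate transporters tested, 0 were higher and 2 lower at an unadjusted p under 0.05, and 2 were higher and 6 lower without overlap (median -0.14). Among all genes tested, 7.5% were higher and 5.47% lower at that p, and 23.9% and 22.9% without overlap. Among those lower without overlap were *Slc2a12* (5.41 and 3.79 FPKM in Cont-IMQ, 3.06 and 2.42 in 7KC-IMQ), *Slc2a8* (6.43 and 5.48, then 3.69 and 4.52) and the fructose transporter *Slc2a5* (2.87 and 2.22, then 2.03 and 1.71). *Slc2a2*, the transporter of liver and islets, was listed at 0. Of the 6 other regulators of the fructose bisphosphates, 0 were higher and 2 lower at an unadjusted p under 0.05, and 1 was higher and 2 lower without overlap (median -0.12).

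The list of HIF subunits and oxygen-sensing genes had 13 genes tested, with 1 higher and 0 lower at an unadjusted p under 0.05, and 3 higher and 2 lower without overlap (median 0.03). Over all genes tested, the shares were 7.5% higher and 5.47% lower at that p, and 23.9% and 22.9% without overlap. *Egln3*, a prolyl hydroxylase that is itself induced by HIF-1, was the gene with the largest difference. It had 87.0 and 64.0 FPKM in Cont-IMQ and 106 and 135 in the 7KC-IMQ libraries (0.67 ± 0.19, standard error; limma, adjusted p = 0.356). *Siah2*, a ubiquitin ligase for prolyl hydroxylases, was 9.44 and 11.7 FPKM in Cont-IMQ and 12.5 and 15.1 in 7KC-IMQ. *Hif1an*, the asparaginyl hydroxylase that limits HIF activity, was lower without overlap (17.2 and 14.4 FPKM in Cont-IMQ, 12.6 and 13.1 in 7KC-IMQ), and so was *Siah1a* (13.3 and 13.8, then 12.3 and 11.2).

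Of the 32 other hypoxia-responsive genes tested, 9 were higher and 3 lower at an unadjusted p under 0.05, and 13 were higher and 5 lower without overlap, with a median of 0.15. The corresponding shares of all genes tested were 7.5% and 5.47% at that p, then 23.9% and 22.9% without overlap. *Stc2*, a secreted glycoprotein, had 2.95 and 2.52 FPKM in Cont-IMQ and 5.59 and 7.31 in 7KC-IMQ, a difference of 0.99 ± 0.16 (standard error; limma, adjusted p = 0.352). The mitochondrial adenylate kinase *Ak4* had 10.1 and 8.23 FPKM in Cont-IMQ and 14.0 and 16.6 in 7KC-IMQ (0.68 ± 0.14, adjusted p = 0.352). *Hilpda*, which blocks the breakdown of stored fat, had 20.2 and 24.8 FPKM in Cont-IMQ and 29.1 and 45.3 in 7KC-IMQ (0.67 ± 0.24, adjusted p = 0.372). All 3 were separated without overlap. In the opposite direction, *Lox*, which crosslinks collagen, had 25.8 and 26.1 FPKM in Cont-IMQ and 19.3 and 15.5 in 7KC-IMQ (-0.56 ± 0.12, limma, adjusted p = 0.354). *Cited2*, a HIF-1-induced inhibitor of HIF-1, was likewise lower without overlap (38.1 and 31.7 FPKM in Cont-IMQ, 24.0 and 28.2 in 7KC-IMQ), as was the heme oxygenase *Hmox1* (75.5 and 59.9, then 57.1 and 56.1). *Epo* was listed at 0. The list was thus mixed, with known HIF-1 targets on both sides.

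The list of mitochondrial pyruvate entry held 13 genes of the pyruvate carrier and of pyruvate dehydrogenase with its regulators. Of these, 0 were higher and 3 lower at an unadjusted p under 0.05, and the median was 0.00. For all genes tested, the shares were 7.5% higher and 5.47% lower at that p, and 23.9% and 22.9% without overlap. The carrier genes *Mpc1* and *Mpc2* overlapped between the groups (differences 0.0001 and -0.03). Pyruvate dehydrogenase kinases inhibit pyruvate dehydrogenase, and 2 of them were lower without overlap. The groups overlapped for *Pdk3* (difference 0.09) and for *Pdk1*, from the list of other hypoxia-responsive genes (-0.005). *Pdk4* had 155 and 176 FPKM in Cont-IMQ and 119 and 123 in 7KC-IMQ (-0.45 ± 0.09, standard error; limma, adjusted p = 0.352), and *Pdk2* had 39.2 and 36.8, then 27.6 and 32.1. *Pdp1*, a phosphatase that activates pyruvate dehydrogenase, was also lower without overlap (6.06 and 6.00 FPKM in Cont-IMQ, 4.01 and 4.05 in 7KC-IMQ). *Pdp2* and *Pdhb* were higher without overlap by 0.20 and 0.16. Of the 8 genes of the pentose phosphate pathway, which branches from the product of the hexokinases, 7 were higher and 0 lower without overlap, with a median of 0.19, and 1 was higher at an unadjusted p under 0.05. The largest differences were those of *Tkt* (68.7 and 60.04 FPKM in Cont-IMQ, 78.7 and 83.5 in 7KC-IMQ, 0.33 ± 0.10, limma, adjusted p = 0.356), *H6pd* (0.26) and *Rpia* (0.24).

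**Figure D3:**
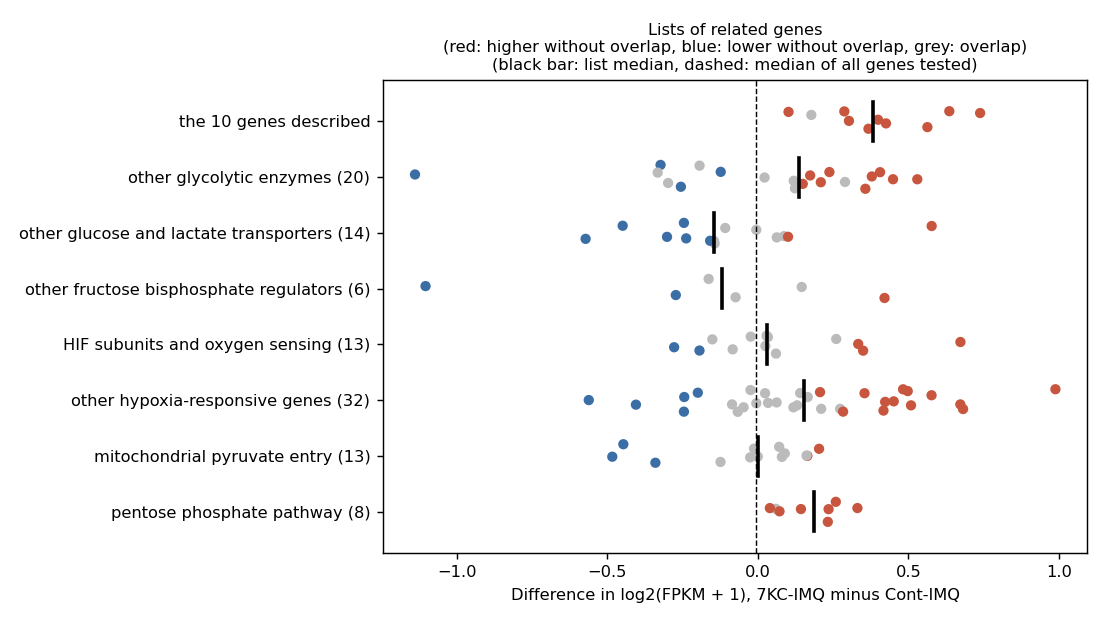
Difference in log2(FPKM + 1), 7KC-IMQ minus Cont-IMQ, of each gene tested in the 10 genes and 7 related lists, colored by whether the groups were separated (red higher, blue lower) or overlapped (grey), with the median of each list (black bar) and of all genes (dashed). The median is 0.38 for the 10 genes and between -0.14 and 0.19 for the related lists.

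In whole skin, fewer cells of a type and less RNA per cell cannot be told apart, and markers of several cell types were therefore set beside the 10 genes. The neutrophil markers had a summed FPKM of 2707 and 2288 in Cont-IMQ and 7350 and 13920 in 7KC-IMQ. Nearly all of this was *S100a8* and *S100a9* (1267 and 1293 FPKM in Cont-IMQ replicate 1, 6775 and 7010 in 7KC-IMQ replicate 2), which keratinocytes under stress also express. Of the 13 neutrophil markers tested, 7 were higher and 3 lower without overlap, with *Cxcr2* higher (13.4 and 15.1 FPKM in Cont-IMQ, 20.2 and 23.03 in 7KC-IMQ), *Fpr1* lower, and the granule genes *Mpo* and *Ltf* at or near 0. All 10 endothelial markers had a negative difference, 8 of them without overlap (median -0.38). Their summed FPKM was 91.3 and 108 in Cont-IMQ and 81.0 and 75.8 in 7KC-IMQ. Across all genes tested, 23.9% were higher and 22.9% lower without overlap.

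The summed markers of keratinocytes overlapped between the groups (35040 and 25430 FPKM in Cont-IMQ, 28020 and 30600 in 7KC-IMQ), as did those of fibroblasts (3594 and 2647, then 3394 and 2999), adipocytes (1812 and 2694, then 2597 and 2053), melanocytes (52.4 and 157, then 91.3 and 78.6) and red blood cells (27.0 and 7.16, then 6.81 and 25.6). Those of macrophages were lower without overlap (423 and 475, then 389 and 395), and so were those of T cells (22.3 and 18.6, then 18.1 and 14.4). The most abundant gene weighs most in each sum. It was *Lyz2* for macrophages (210 and 233, then 191 and 175) and *Cd3g* for T cells (10.15 and 9.61, then 7.62 and 5.59). By gene, 8 of the 12 macrophage markers overlapped, 1 was higher and 3 were lower. Of the 7 T cell markers tested, 3 overlapped, 1 was higher and 3 were lower. Without overlap, 23.9% of all genes were higher and 22.9% lower. The library with the highest *S100a8* and *S100a9*, 7KC-IMQ replicate 2, was also the one with the highest value of 9 of the 10 genes and the highest sum of FPKM. The hair follicle and melanocyte markers were highest in Cont-IMQ replicate 2, where 9 of the 10 genes were lowest. The part of cell composition and hair cycle in the differences of the 10 genes was not tested.

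**Figure D4:**
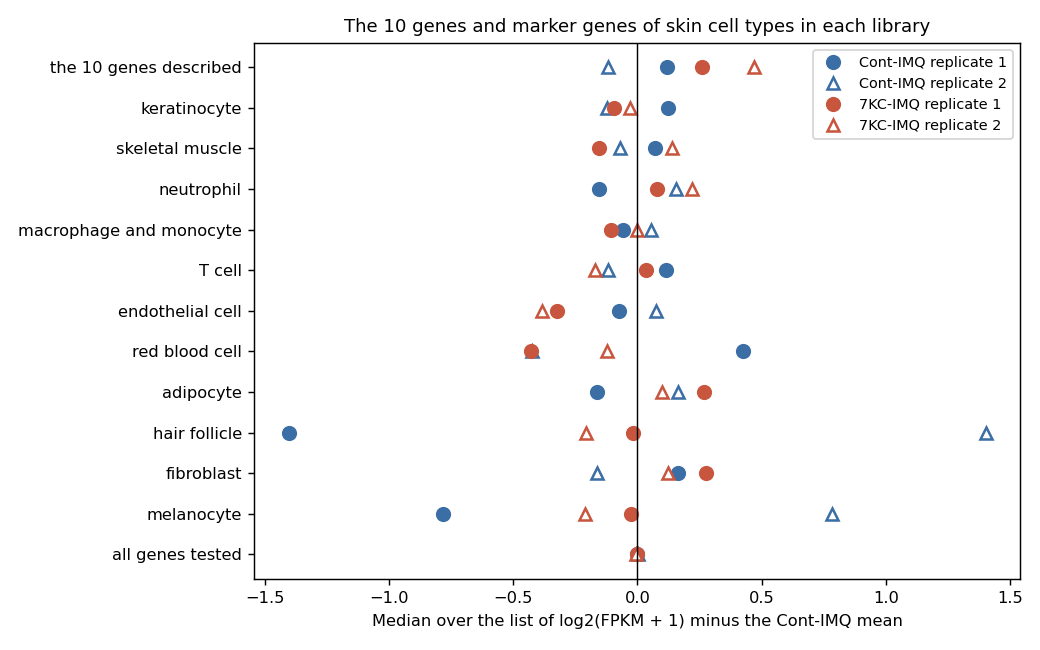
Median, over the genes of each list, of log2(FPKM + 1) minus the mean of the Cont-IMQ libraries, in each library (blue, Cont-IMQ; red, 7KC-IMQ; filled circle, replicate 1; open triangle, replicate 2). The 10 genes lie at 0.12 and -0.12 in Cont-IMQ and at 0.26 and 0.47 in 7KC-IMQ, the endothelial markers lie lower in both 7KC-IMQ libraries, and the hair follicle markers are spread from -1.402 to 1.402 within Cont-IMQ.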

How the data were processed

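The groups are those of the sample labels. Per the labels, total RNA was made into libraries with a TruSeq stranded mRNA kit, which the paper's methods do not name. The authors mapped the reads to mm10 with TopHat, using Bowtie2 and SAMtools, obtained FPKM for each gene symbol from Cufflinks, and deposited the FPKM values of each library. The submitters' processing notes name TopHat2 2.1.1, Bowtie2 2.2.8, SAMtools 0.1.18 and Cuffdiff 2.2.1. The paper's methods name other versions of TopHat, Bowtie2 and SAMtools. The gene annotation, the strand setting and the treatment of reads that map to several genes are not given in the sources used here, and these choices move the values of genes with shared or overlapping sequence.

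The deposited FPKM were used without rescaling, as log2(FPKM + 1), for the 15896 genes whose 4-library mean reached 0.1 FPKM. Groups were compared with limma 3.58.1 (R 4.3.3; lmFit, then eBayes with its variance trend), Benjamini-Hochberg adjustment over all genes tested and a threshold of 0.05. For genes of low FPKM, a difference on this scale is smaller than the change in FPKM itself. FPKM are not counts, so no count model was used. The script was tested on simulated data. Depth was estimated as the number of reads at which low FPKM values came closest to whole reads (within 0.1 of a read for 72.0% to 76.7% of 354 to 367 genes, against 20.0% by the width of the tolerance).

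Gene coordinates and shared 75-base windows came from GENCODE release M21 (GRCm38, also called mm10), and promoter windows from RefSeq (GRCm38.p6), both read with Python 3.11.15. The 10 genes and all lists of related genes and cell type markers were chosen with earlier results of these data known, and the lists are described by counts and medians without a test of the list. Genes named from the related lists were the paralogs of the 10 genes and up to 3 genes per direction and list, those with the largest differences that had no overlap and averaged at least 1 FPKM. From the marker lists, the most abundant gene and any gene at 0 were named by rule, and other genes after their values were seen. Some genes that these rules name are not reported here. Alternatives changed the pseudocount (0.1), the filter (1 FPKM, or none), the scaling (median ratios, equal sums of FPKM, quantiles) or the model (no variance trend, a replicate block), or left out a library.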

Additional observations from a re-analysis of the deposited data

How the results depend on the processing

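Across the 12 alternatives, the direction of the 10 genes was kept in 119 of 120 values, and 0 of the 10 passed the adjusted threshold under any of them (limma, adjusted p between 0.282 and 0.977). The exception was *Hk1*, which ranged from -0.015 (without Cont-IMQ replicate 2) to 0.37 with 1 library left out. The median difference of the 10 genes ranged from 0.25 (without Cont-IMQ replicate 2) to 0.47 (without 7KC-IMQ replicate 1). With all 4 libraries kept, 4 or 5 of the 10 were higher at an unadjusted p under 0.05. Of all genes, between 638 (equal sums of FPKM) and 1270 (no filter) were then higher. Between 766 (filter of 1 FPKM) and 1229 (equal sums of FPKM) were lower. The genes tested numbered 13110 with the filter of 1 FPKM and 18243 with no filter. Over all genes, 2 passed the adjusted threshold with a pseudocount of 0.1, and between 1 and 9 with 1 library left out (9 without Cont-IMQ replicate 1 and 5 without replicate 2). Among the paralogs, the sign turned for *Hk3* (-0.045 with equal sums of FPKM, -0.11 to 0.16 with 1 library left out), *Slc2a3* (0.054 after quantile normalization, -0.029 to 0.019), *Pfkm* (-0.70 to 0.10) and *Arnt* (-0.20 to 0.031). The causes were not tested.

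Replicate numbers recur in the labels of both groups without a stated litter, batch or day behind them. The deviations of same-numbered libraries correlated with r = 0.065 over 15896 genes, which are not independent. With the replicate number as a block (replicate block), the median of the 10 genes was 0.38, 4 had an unadjusted p under 0.05 and 9 were separated without overlap. Of all 15896 genes, 978 were higher and 776 lower at that p, and 23.9% and 22.9% without overlap. With 2 libraries per group, the precision of each value is limited by the spread between them.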
